A study of Arabidopsis thaliana with 18 samples.

Results

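The genes described here were *AO* (locus AT5G14760), *NUDT6* (AT2G04450) and *NUDT7* (AT4G12720), taken by locus as genes of NAD synthesis and of NADH hydrolysis. Each was measured by 1 probe set of the Arabidopsis ATH1 array, and they make up 3 of the 14277 genes that could be assigned to the 22746 probe sets tested. The values came from 18 arrays of RNA from systemic leaves of 4-week-old plants in the Col-0 ecotype, 3 arrays for each of 6 groups. Wild-type Col-0 (WT), *lecrk-VI.2-2* and *bak1-5* plants were infiltrated in 3 lower leaves with either 10 mM MgCl2, the mock treatment, or the bacterium *Pseudomonas syringae* pv. *maculicola* ES4326 (*Psm*) at an OD600 of 0.002, and the upper, uninfiltrated leaves were collected 48 hr later from 12 plants for each sample. Psm in the lower leaves is the treatment that induces systemic acquired resistance (SAR), and the difference between Psm and MgCl2 arrays is called the SAR change below. *lecrk-VI.2-2* is a single T-DNA insertion line of a lectin receptor kinase gene, described by the study as a knockdown, and *bak1-5* carries an altered but still expressed form of the co-receptor kinase BAK1. The samples are numbered as biological replicates, but nothing used here says that they were grown or infiltrated on different days, so the *p* values measure the spread between these samples only.

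NAD is the redox cofactor of most dehydrogenases and also a substrate of enzymes that cleave it in signalling. Plants make it de novo in the plastid from aspartate, and L-aspartate oxidase, the product of *AO*, catalyses the first step of that route. Quinolinate synthase and quinolinate phosphoribosyltransferase follow, and an adenylyltransferase and an amidating synthetase complete the dinucleotide. Nicotinamide released from NAD is returned to the pool by salvage through nicotinate. Nudix hydrolases cut nucleoside diphosphates linked to another group, and those encoded by *NUDT6* and *NUDT7* act on NADH and ADP-ribose. Plants without *NUDT7* are known for heightened defence that depends on *EDS1*. NAD released into the space outside cells during infection induces defence in Arabidopsis, and the study examined LecRK-VI.2 as its potential receptor together with BAK1.

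All values are log2 signals, so a difference of 1 is a 2-fold ratio of signals. Of 22 cell type and senescence marker genes looked for, 2 could be assigned to a probe set. The leaf photosynthesis gene *RCA* had a mean of 12.70, with 3 probe sets brighter. The senescence gene *SAG13* was at group means of 3.80 to 5.14 and rose with SAR in WT by 1.34 (*q* = 2.2e-04), and its part in the values below was not tested. The probe set of *LecRK-VI.2* did not separate mutant from WT arrays after MgCl2 (5.52 to 5.59 against 5.44 to 5.55), and where its probes lie relative to the insertion is not given, so the groups are named as labelled. Replicate 2 of *lecrk-VI.2-2* after MgCl2 and replicate 3 after Psm stood apart, with 16% and 16.8% of probe sets at 6 or more against 18.2% to 19.6% on the other 16 arrays. Results for *AO*, *NUDT6* and *NUDT7* that rest on this pair are also given without it.

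*AO* was higher after Psm than after MgCl2 in every genotype, and its largest differences were in the mutants. In WT it was at 5.25, 5.38 and 4.96 after MgCl2 (5.20 ± 0.22, SD, n = 3) and at 5.54, 5.89 and 6.02 after Psm (5.82 ± 0.25). In *lecrk-VI.2-2* the MgCl2 arrays gave 5.24, 4.36 and 5.32 (4.97 ± 0.53) and the Psm arrays 6.32, 5.84 and 6.04 (6.07 ± 0.24). In *bak1-5* they gave 5.58, 5.39 and 4.93 (5.30 ± 0.34) and 6.28, 6.07 and 6.82 (6.39 ± 0.39). No Psm array overlapped the MgCl2 arrays of its genotype in any of the 3 genotypes, which was so for 2.36% of all probe sets. All 3 genes were named through the rows of a published gene list with the largest WT changes. Such shares, here and below, are therefore not a like background for them. The array at 4.36 was the lowest of all 18, and it was 1 of the pair that stood apart. As these are whole leaves, more RNA in each cell and more cells that express the gene cannot be told apart, here and for the genes that follow.

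**Figure D1:**
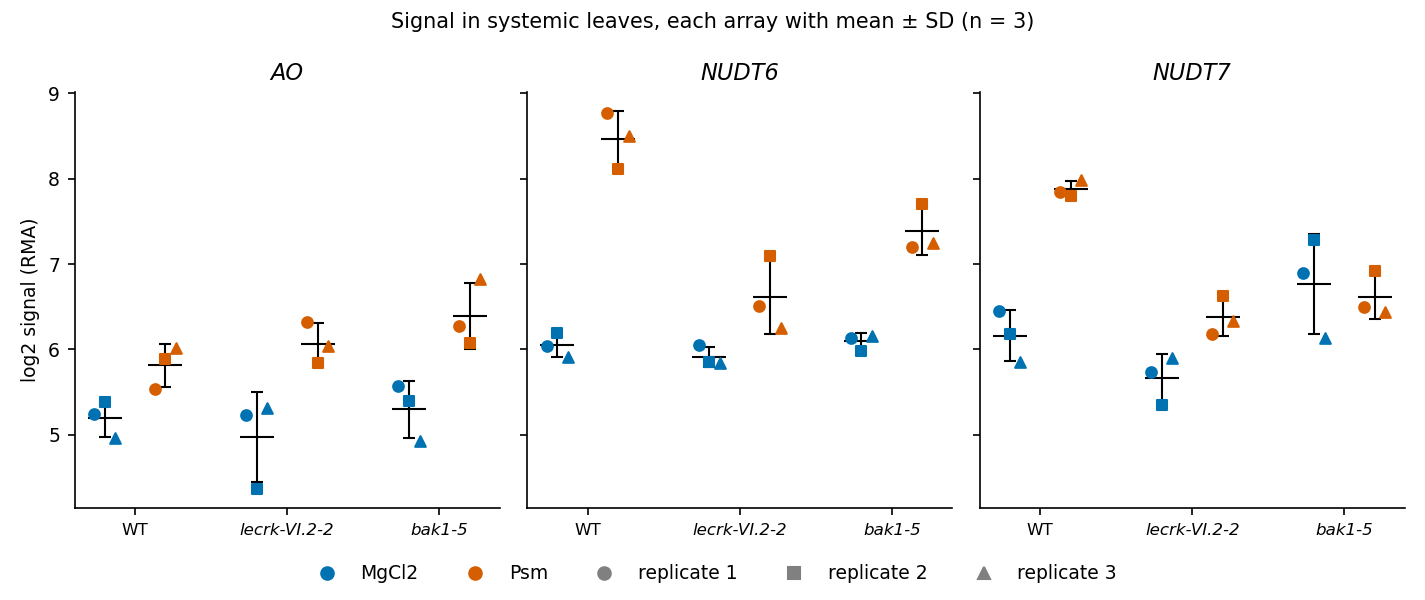
Log2 signal of *AO*, *NUDT6* and *NUDT7* on each of the 18 arrays, by genotype (horizontal axis) and treatment (blue, MgCl2; orange, Psm), with the group mean and SD in black and the replicate number given by the symbol. The Psm values of *AO* lie above the MgCl2 values in each genotype, those of *NUDT6* step down from WT to *bak1-5* to *lecrk-VI.2-2*, and *NUDT7* in *bak1-5* has overlapping treatments.

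The SAR change of *AO* passed the test in both mutants but not in WT. In the limma fit of all 18 arrays, with Benjamini-Hochberg adjustment over all probe sets (*q*, called at 0.05 or less), *AO* rose by 1.09 (SE 0.24, *q* = 0.028) in *lecrk-VI.2-2* and by 1.09 (SE 0.24, *q* = 0.0071) in *bak1-5*, each a 2.13-fold increase with a 95% interval of 1.51 to 3.01. In WT the change was 0.62 (SE 0.24, *q* = 0.11), a ratio of 1.54 with an interval of 1.09 to 2.17. Averaged over the genotypes, *AO* rose by 0.94 (SE 0.14, *q* = 5.7e-05), and an exact two-sided permutation test of treatment labels within genotypes gave *p* = 0.00025, the smallest value its 8000 arrangements allow. Among the changes of all 22746 probe sets, ordered from the most positive, *AO* was at rank 85 in *lecrk-VI.2-2*, rank 200 in *bak1-5* and rank 1020 in WT.

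The differences between the genotypes in the change of *AO* did not pass their own test. WT minus *lecrk-VI.2-2* was -0.47 (95% interval -1.18 to 0.23, *q* = 0.77) and WT minus *bak1-5* was also -0.47 (-1.18 to 0.23, *q* = 0.82), and both intervals include 0. The 2 mutants had nearly equal changes, with an interval of their difference from -0.70 to 0.70. In *lecrk-VI.2-2* the call was lost on leaving out any of 4 arrays: without MgCl2 replicate 2 the change was 0.79 (*q* = 0.075), without the pair 0.80 (*q* = 0.15), and without Psm replicate 1, 2 or 3 it was 0.97 (*q* = 0.13), 1.21 (*q* = 0.052) or 1.10 (*q* = 0.060). In WT it was gained without *lecrk-VI.2-2* MgCl2 replicate 2 (*q* = 0.031), without the pair (*q* = 0.033), in a fit of the compared genotypes alone (*q* = 0.012) and with array weights (*q* = 0.0038), and in *bak1-5* it was lost without MgCl2 replicate 3 (0.91, *q* = 0.0503).

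The levels of *AO* did not differ detectably between genotypes under either treatment. In order of group mean, the 3 MgCl2 groups (4.97 to 5.30) came first and the Psm groups of WT, *lecrk-VI.2-2* and *bak1-5* (5.82, 6.07 and 6.39) followed, and every neighbouring pair of groups in that order overlapped. After Psm, *lecrk-VI.2-2* differed from WT by 0.25 (*q* = 0.65) and *bak1-5* by 0.58 (95% interval 0.08 to 1.07, *q* = 0.25). After MgCl2 the differences from WT were -0.22 and 0.10.

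*NUDT6* had the largest change of the 3 genes in WT, and its level after Psm ran from WT through *bak1-5* to *lecrk-VI.2-2*. In WT it was at 6.05, 6.19 and 5.91 after MgCl2 (6.05 ± 0.14) and at 8.77, 8.11 and 8.50 after Psm (8.46 ± 0.33). In *lecrk-VI.2-2* it was at 6.05, 5.85 and 5.84 (5.91 ± 0.12) and then at 6.50, 7.10 and 6.25 (6.62 ± 0.43). In *bak1-5* it was at 6.14, 5.98 and 6.16 (6.09 ± 0.095) and at 7.19, 7.70 and 7.25 (7.38 ± 0.28). The 9 MgCl2 arrays lay together between 5.84 and 6.19. In each genotype the Psm arrays were above the MgCl2 arrays without overlap, as for 2.36% of all probe sets. The Psm arrays fell into the order WT, *bak1-5*, *lecrk-VI.2-2* without overlap, which 0.787% of all probe sets did. However, the lowest *bak1-5* and the highest *lecrk-VI.2-2* array were close, at 7.19 and 7.10. Naming by the WT change favours high WT Psm arrays, so neither share is a like background for *NUDT6*.

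*NUDT6* rose 5.31-fold in WT (95% interval 4.05 to 6.97; log2 change 2.41, SE 0.19, *q* = 7.2e-08) and 2.44-fold in *bak1-5* (1.86 to 3.20; 1.29, *q* = 1.9e-04). In *lecrk-VI.2-2* the ratio was 1.63 (1.24 to 2.14; 0.71, *q* = 0.089). On the log2 scale the change was 29.3% of the WT change in *lecrk-VI.2-2* and 53.4% in *bak1-5*. Its rank among all changes was 125 in WT, 227 in *lecrk-VI.2-2* and 149 in *bak1-5*. The mean of the 3 changes was 1.47 (*q* = 1.7e-08, exact permutation *p* = 0.00025, again the smallest possible).

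The difference of the *NUDT6* response between genotypes passed the interaction test for each mutant against WT. WT minus *lecrk-VI.2-2* was 1.70 (SE 0.26, *q* = 0.0021) and WT minus *bak1-5* was 1.12 (SE 0.26, *q* = 0.040). The mutants differed from each other by -0.58 (95% interval -1.14 to -0.03, *q* = 0.71), which did not pass. After Psm the *lecrk-VI.2-2* arrays were all below the WT arrays, as for 12% of probe sets, not a like background given the naming. *NUDT6* was lower than in WT by 1.84 in *lecrk-VI.2-2* (log2 difference -1.84, *q* = 6.3e-06) and by 1.08 in *bak1-5* (-1.08, *q* = 0.0020). The mutants differed by -0.76 (*q* = 0.12), where 0.198% of probe sets were called. The call of the interaction between WT and *bak1-5* was near the threshold and was lost on leaving out any 1 of 11 arrays, namely each of the 6 MgCl2 arrays of WT and *bak1-5*, Psm replicates 1 and 3 of both, and *lecrk-VI.2-2* Psm replicate 1 (differences of 0.96 to 1.19, *q* from 0.0501 to 0.12). Without *lecrk-VI.2-2* Psm replicate 2, the array at 7.10, the change of *NUDT6* in that mutant was 0.47 (*q* = 0.46) and its Psm level differed from that of *bak1-5* by -1.002 (*q* = 0.017). The change in *lecrk-VI.2-2* passed without Psm replicate 3 (0.89, *q* = 0.029), with array weights (0.87, *q* = 0.0043) and with dim probe sets left out (*q* = 0.046).

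*NUDT7* passed the test in WT and in neither mutant, and in *bak1-5* its Psm and MgCl2 arrays overlapped. In WT it was at 6.45, 6.18 and 5.86 after MgCl2 (6.16 ± 0.30) and at 7.85, 7.79 and 7.98 after Psm (7.87 ± 0.098). In *lecrk-VI.2-2* it was at 5.73, 5.35 and 5.90 (5.66 ± 0.28) and at 6.18, 6.62 and 6.33 (6.38 ± 0.22). In *bak1-5* it was at 6.89, 7.28 and 6.13 (6.77 ± 0.59) and at 6.49, 6.92 and 6.44 (6.62 ± 0.26). Psm arrays lay above MgCl2 arrays without overlap in WT, as for 15.1% of all probe sets, and in *lecrk-VI.2-2*, as for 4.88%. In *bak1-5* 2 of the MgCl2 arrays were above 2 or more of its Psm arrays, and the third was below them all. The WT Psm group stood alone at the top, while each of the other 5 groups overlapped its neighbour in the order *lecrk-VI.2-2* MgCl2, WT MgCl2, *lecrk-VI.2-2* Psm, *bak1-5* Psm and *bak1-5* MgCl2.

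*NUDT7* rose 3.28-fold in WT (95% interval 2.36 to 4.55; 1.71, SE 0.23, *q* = 3.2e-05). The ratio was 1.64 in *lecrk-VI.2-2* (1.18 to 2.28; 0.71, *q* = 0.19) and 0.899 in *bak1-5* (0.647 to 1.25; -0.15, *q* = 0.76). Its rank among all changes was 236 in WT and 219 in *lecrk-VI.2-2* but 17598 in *bak1-5*. The *bak1-5* value turned to 0.10 without MgCl2 replicate 2, the array at 7.28, and the *lecrk-VI.2-2* value passed with array weights (0.76, *q* = 0.038). The mean over genotypes was 0.76 (*q* = 3.1e-04, exact permutation *p* = 0.014).

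The response of *NUDT7* was smaller in *bak1-5* than in WT by the interaction test (1.87, SE 0.32, *q* = 0.0041), and this call was kept on leaving out each array in turn (1.61 to 2.18). For *lecrk-VI.2-2* the difference from WT was 1.00 (95% interval 0.33 to 1.67, *q* = 0.17) and did not pass. The mutants differed from each other by 0.87 (0.20 to 1.54, *q* = 0.65). After Psm, *NUDT7* was below WT in *lecrk-VI.2-2* (-1.50, *q* = 4.1e-04) and in *bak1-5* (-1.26, *q* = 0.0027), and the mutants differed by -0.24 (*q* = 0.71).

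Without SAR, *NUDT7* was the gene with the widest spread between genotypes. After MgCl2 it was lower than in WT by 0.50 in *lecrk-VI.2-2* (log2 difference -0.50, *q* = 1.00) and higher by 0.61 in *bak1-5* (*q* = 0.995). All 3 *bak1-5* arrays were above all 3 *lecrk-VI.2-2* arrays, as for 6.34% of probe sets, and the difference between the mutants was -1.11 (95% interval -1.58 to -0.63, *q* = 0.099). It passed without *bak1-5* MgCl2 replicate 3, the array at 6.13 (-1.43, *q* = 0.0030). None of the 3 genes passed in any comparison of MgCl2 groups by limma, and at an unadjusted *p* under 0.05 *NUDT7* was the 1 gene of 3 in each. Over all probe sets 0% were called for *lecrk-VI.2-2* against WT (987, or 4.34%, at an unadjusted *p* under 0.05), 0.0572% for *bak1-5* against WT (4.01% unadjusted) and 0.0703% for the mutants against each other (6.55% unadjusted).

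Counted over the 3 genes, 2 rose in WT (*NUDT6* and *NUDT7*), where 7.36% of all probe sets rose, 1 rose in *lecrk-VI.2-2* (*AO*), where 0.607% did, and 2 rose in *bak1-5* (*AO* and *NUDT6*), where 4.08% did. All 3 rose on average over the genotypes, against 9.56% of probe sets. A larger response in WT was called for 1 of 3 against *lecrk-VI.2-2* (*NUDT6*; 1.11% of probe sets) and 2 of 3 against *bak1-5* (*NUDT6* and *NUDT7*; 1.07%). Between the mutants 0 of 3 responses differed by limma, with *NUDT6* and *NUDT7* at an unadjusted *p* under 0.05 (6.79% of all probe sets), and 0.0308% of probe sets were called. After Psm, the same 2 Nudix genes were lower than in WT in *lecrk-VI.2-2* (4.73% of probe sets) and in *bak1-5* (2.28%). The comparisons with WT share the WT arrays, so the counts for the mutants are not independent. All 3 genes were named through the rows of a published gene list with the largest changes in WT. The shares of all probe sets are therefore not a like background for any of these counts. This naming directly favours the WT, averaged and WT-minus-mutant counts, and the counts of genes lower than in WT after Psm.

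**Figure D2:**
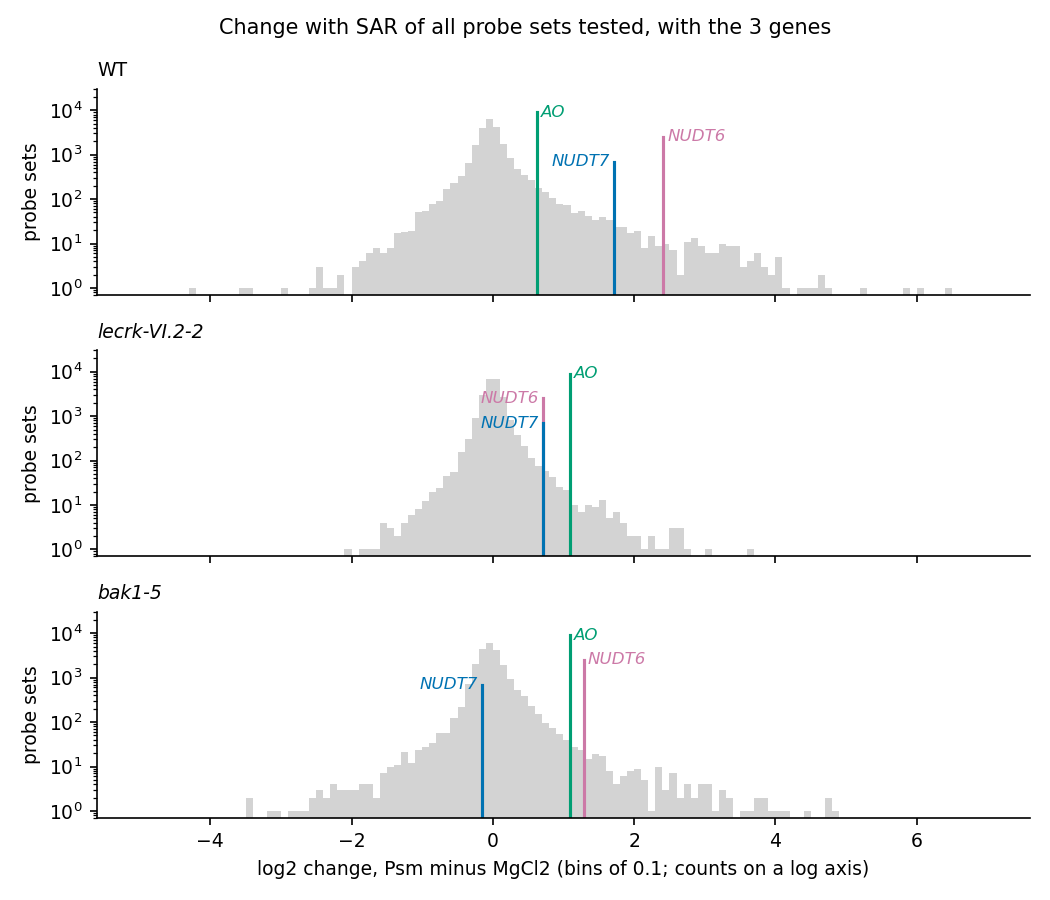
Number of probe sets (vertical, log axis) by log2 SAR change (horizontal, bins of 0.1) in each genotype, with coloured lines at the changes of *AO*, *NUDT6* and *NUDT7*, whose heights only separate the labels. The line of *AO* is at 0.62 in WT and at 1.09 in both mutants, differences that did not pass the limma interaction test (*q* = 0.77 and 0.82). *NUDT7* goes from 1.71 in WT to -0.15 in *bak1-5*, inside the bulk of the probe sets.

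The changes of *NUDT6* and *NUDT7* were unequal in WT and *bak1-5* and nearly equal in *lecrk-VI.2-2*. The log2 signal of *NUDT6* minus that of *NUDT7* on the same array shows unequal change, not which transcript is more abundant, because probes differ in brightness. In *bak1-5* this difference was -0.76, -1.30 and 0.03 after MgCl2 and 0.70, 0.78 and 0.81 after Psm. In WT it was -0.40, 0.01 and 0.05 and then 0.92, 0.31 and 0.51. In *lecrk-VI.2-2* it was 0.32, 0.50 and -0.07 and then 0.32, 0.47 and -0.07. The treatments did not overlap in WT or *bak1-5* and coincided in *lecrk-VI.2-2*. The difference rose by 0.70 in WT and 1.44 in *bak1-5* (exact two-sided permutation *p* = 0.10 for each, the smallest that 3 against 3 arrays can give) and was -0.01 in *lecrk-VI.2-2* (*p* = 0.80). With labels permuted within genotypes, the mean of 0.71 had an exact *p* of 0.00625.

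**Figure D3:**
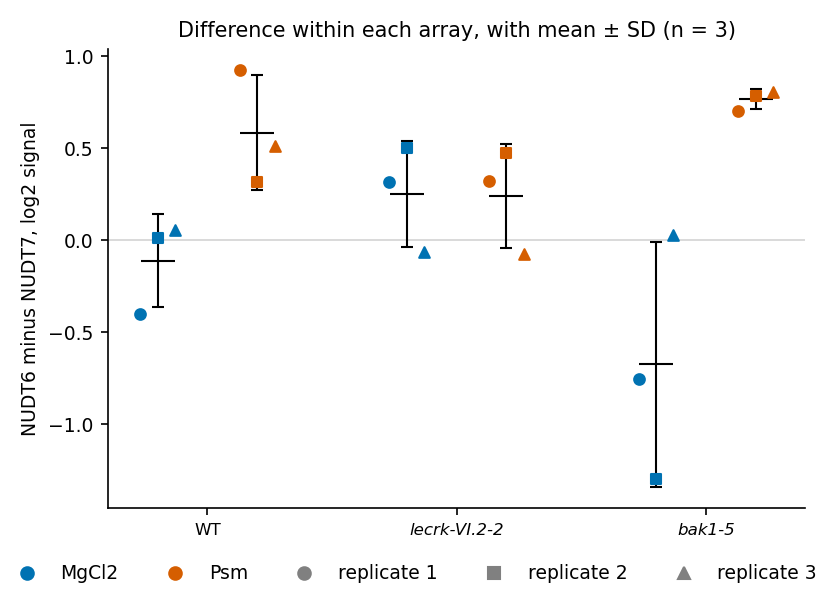
Difference in log2 signal between *NUDT6* and *NUDT7* on each array (vertical) by genotype (horizontal) and treatment (blue, MgCl2; orange, Psm), with group mean and SD in black and replicate numbers given by the symbol. The 3 *bak1-5* Psm arrays lie at 0.70 to 0.81, above its MgCl2 arrays, while both *lecrk-VI.2-2* groups span -0.07 to 0.50.

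Across the 18 arrays, the log2 signals of *NUDT6* and *NUDT7* correlated at Pearson's *r* = 0.80, those of *AO* and *NUDT6* at 0.53, and those of *AO* and *NUDT7* at 0.42. These are descriptions over arrays that share their groups. After each group's mean was taken away, the values were 0.28, -0.27 and 0.34.

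Of the NAD genes looked for beside these 3, few could be assigned to a probe set, and most of those were named through the rows of a published gene list with the largest changes in WT. The counts below therefore lean to genes that rose in WT. Of the 5 de novo synthesis genes, 4 were assigned, and *AO* was the 1 that rose in any single genotype. *QPT*, quinolinate phosphoribosyltransferase, had changes of 0.40 (*q* = 0.12) in WT, 0.43 (*q* = 0.31) in *lecrk-VI.2-2* and 0.37 (*q* = 0.20) in *bak1-5*, and it passed as an average (0.40, *q* = 0.0041). *NMNAT* and *NADS*, the adenylyltransferase and the NAD synthetase that complete the route, did not pass in any genotype, with changes between -0.22 and 0.08. The -0.22 was *NADS* in *lecrk-VI.2-2*, where MgCl2 replicate 2, of the pair that stood apart, was at 5.41 against 4.83 and 4.74. *QPT* was at 4.92 on that array against 5.57 and 5.47. Changes of these genes without it are not given. The median change of the 4 was 0.20, 0.22 and 0.22 in WT, *lecrk-VI.2-2* and *bak1-5*, beside medians of all probe sets of -0.04, 0.00 and -0.04.

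Of 5 salvage genes, 1 was assigned. *NAPRT2*, a nicotinate phosphoribosyltransferase, was named through the rows with the largest WT changes, which favours a rise in WT. In WT *NAPRT2* was at 5.06, 4.79 and 4.63 after MgCl2 and at 5.24, 5.48 and 5.44 after Psm. The treatments did not overlap, with Psm above MgCl2 as for 15.1% of all probe sets. It rose by 0.56 in WT (*q* = 0.0080) and by 0.68 in *bak1-5* (*q* = 0.0039), and its value in *lecrk-VI.2-2* was 0.41 (*q* = 0.24). No probe set could be assigned to the 3 NAD kinases, the 3 NAD carriers or the 7 NAD-consuming signalling genes looked for.

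Of 26 Nudix genes counted, 6 were assigned, all through the rows ordered by the change in WT, so their rise in WT was fixed by how they were named and their counts are not compared between genotypes. In *bak1-5* 2 of the 6 rose (*NUDT6* and *NUDT17*), where 4.08% of all probe sets rose. In *lecrk-VI.2-2* 0 of the 6 rose by limma, where 0.607% of all probe sets did. There *NUDT6* and *NUDT7* were at an unadjusted *p* under 0.05, where 9.22% of all probe sets were. *NUDT8* was at 6.01, 6.02 and 5.61 in WT after MgCl2 and at 8.88, 7.93 and 8.32 after Psm, a change of 2.50 (*q* = 1.6e-04), with 0.43 in *lecrk-VI.2-2* and 0.73 in *bak1-5*. *NUDT21* was at 4.55, 5.16 and 4.22 and then at 6.40, 7.43 and 7.43, a change of 2.44 (*q* = 8.2e-05), with 0.60 and 0.54 in the mutants. In WT the treatments of both genes were well apart, and in neither mutant did either gene pass. *NUDT17* rose by 0.99 in WT (*q* = 3.0e-05) and by 0.71 in *bak1-5* (*q* = 0.0017), with 0.19 in *lecrk-VI.2-2*. *NUDT3* rose by 0.60 in WT (*q* = 0.0027).

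The interaction with WT passed for *NUDT6* and *NUDT17* (0.80, *q* = 0.036) in *lecrk-VI.2-2*, where 1.11% of all probe sets had a larger response in WT. In *bak1-5* it passed for *NUDT6* and *NUDT7*, where 1.07% did. Naming by the WT change favours a larger response in WT, so these calls are not read as a result about the Nudix list. For *NUDT8* and *NUDT21* the differences were as large or larger but more variable (2.07 and 1.84 for *lecrk-VI.2-2*, *q* = 0.074 and 0.084). On *lecrk-VI.2-2* Psm replicate 2 all 6 Nudix genes had the highest of their group's 3 values, where 29.7% of all probe sets had theirs, with *NUDT8* at 7.40 against 5.74 and 5.42, while *AO* had its lowest there.

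**Figure D4:**
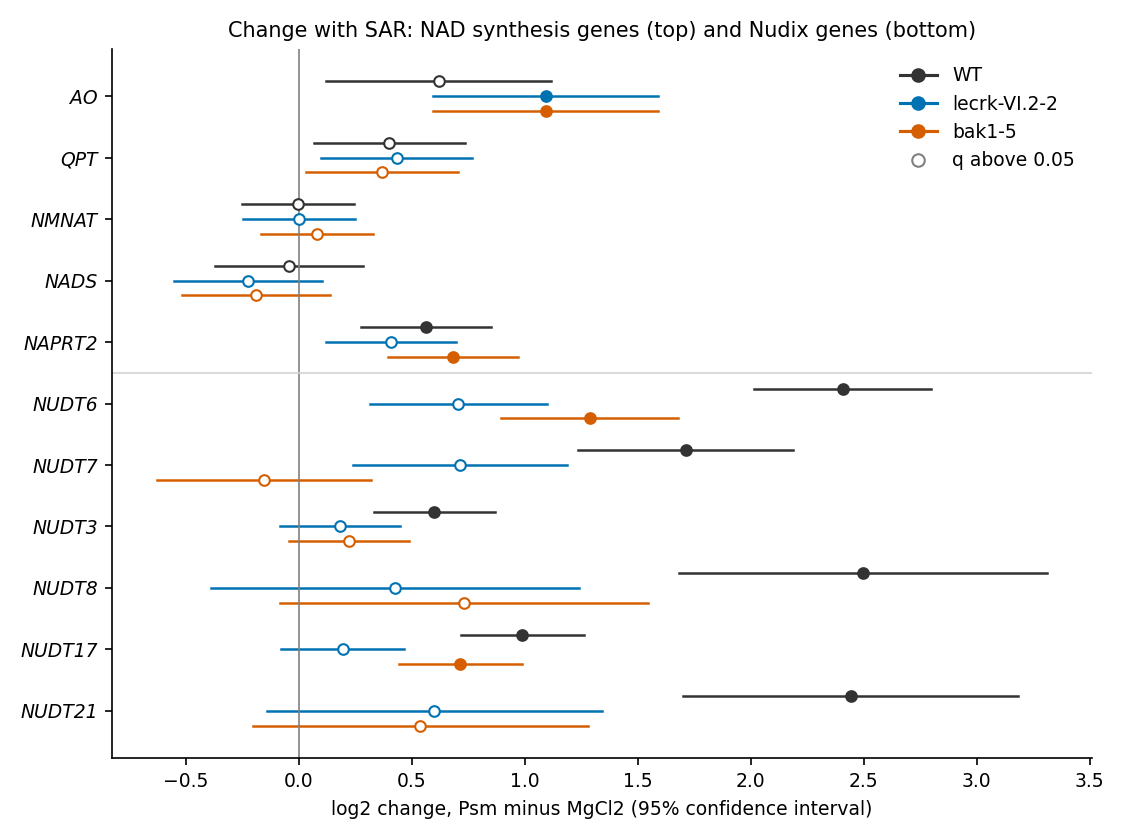
Log2 SAR change (horizontal) with its 95% confidence interval in WT (black), *lecrk-VI.2-2* (blue) and *bak1-5* (orange) for the 5 NAD synthesis and salvage genes (above the grey line) and the 6 Nudix genes (below it) that were counted; filled points passed *q* of 0.05 or less. The 3 intervals of *AO* overlap, whereas the WT intervals of *NUDT6* (2.02 to 2.80) and *NUDT7* (1.24 to 2.19) lie to the right of both mutants. The *NUDT7* interval of *lecrk-VI.2-2* ends at 1.19, and its difference from WT did not pass the limma interaction test (*q* = 0.17).

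*EDS1*, on which the defence of plants without *NUDT7* depends, and its partners *PAD4* and *SAG101* were read beside the Nudix genes. *EDS1* rose by 1.10 in WT (*q* = 4.6e-07) and by 0.92 in *bak1-5* (*q* = 8.7e-06), with 0.36 in *lecrk-VI.2-2* (*q* = 0.12). Its WT minus *lecrk-VI.2-2* difference passed (0.75, *q* = 0.011), and its WT minus *bak1-5* difference did not (0.19, *q* = 0.84). *PAD4* rose by 1.79 in WT (*q* = 3.4e-08), with 0.51 in *lecrk-VI.2-2* and 0.26 in *bak1-5*, and both differences from WT passed (1.28, *q* = 9.7e-04, and 1.53, *q* = 2.5e-04). *SAG101* rose by 0.54 in WT (*q* = 0.0056), with 0.08 in *lecrk-VI.2-2* and 0.02 in *bak1-5*. Neither of its differences from WT passed by limma (0.46, *q* = 0.31, and 0.52, *q* = 0.22), and its group means were dim, at 3.61 to 4.20. *EDS1* and *PAD4*, but not *SAG101*, were named through the rows with the largest WT changes, which favours a larger response in WT.

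The genes whose signals over the 18 arrays were most like each of the 3, among 3130 probe sets with 1 assigned gene and a highest group mean of 6 or more, are given as a description, since the arrays share their groups. Nearest to *AO* were AT2G41250 (*r* = 0.93), AT5G38980 (0.92), AT4G34630 (0.91), AT5G44580 (0.91) and *HSC70-1* (0.90), an abundant heat shock cognate chaperone gene. AT2G41250 had changes of 0.86, 0.95 and 1.13 in WT, *lecrk-VI.2-2* and *bak1-5*. Nearest to *NUDT6* were *BGL2* (0.98), also called *PR2* and used as a marker of the salicylic acid response, the glutaredoxin gene *GRX480* (0.98), *SPP* (0.98), AT3G60450 (0.98) and AT3G60420 (0.98). The changes of *BGL2* were 5.88, 1.62 and 2.97, in the order of genotypes that *NUDT6* had. Nearest to *NUDT7* were *SZF1* (0.96), a zinc finger protein gene, the MAP kinase gene *MPK3* (0.96), AT5G42050 (0.96), the syntaxin gene *SYP122* (0.95) and *HIR2* (0.95). *SZF1* changed by 2.83, 0.88 and -0.45, and *MPK3* by 2.09, 0.73 and 0.19. None of the 5 nearest genes was shared between any 2 of the 3.

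**Figure D5:**
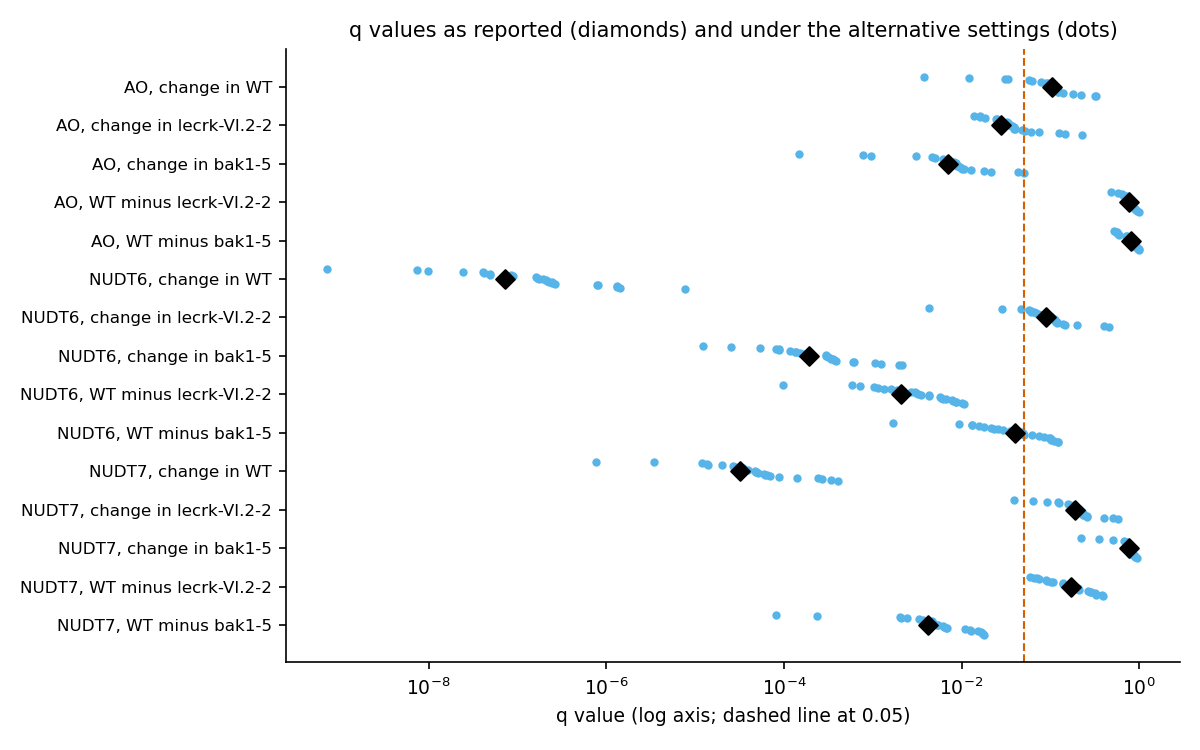
*q* value (horizontal, log axis) of the SAR change of each gene in each genotype and of its difference from WT, as reported (black diamonds) and under the alternative settings that keep the threshold (blue dots), with a dashed line at 0.05. The dots of *AO* in each genotype and of *NUDT6* and *NUDT7* in *lecrk-VI.2-2* fall on both sides of the line. So do those of *NUDT6* for WT minus *bak1-5*. The dots of *NUDT6* and *NUDT7* in WT stay to its left.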

How the data were processed

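Transcripts in systemic leaves were measured on 18 ATH1 arrays. The deposited values are log2 signals that the authors made with RMA (background correction, quantile normalization and summary by probe set), so there are no counts and no detection calls, and 3 arrays in each group limit the precision. Of 22810 probe sets, 64 controls were left out. A linear model with a mean per group (limma 3.58.1, R 4.3.3) used all 18 arrays, with 12 residual degrees of freedom, and *p* values were adjusted by Benjamini-Hochberg within each comparison. The quantile normalization makes the distributions of probe signals equal, so changes are relative to the other probe sets. After the summary the distributions of probe sets were close but not equal, with array medians of 4.45 to 4.59. No arrays were identical, and the fit was tested on simulated data.

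Probe sets were named by the platform annotation (13473) or by a gene list published with the study (948), of which the 1998 rows with the largest WT changes were read and whose values served only to match rows to probe sets. All 3 genes were named by the latter. No sequence was used here. A gene of the Nudix list is not reported here and is left out of the counts. Named were the 3 genes, each NAD or Nudix gene called in any SAR change or difference from WT, and the 5 genes most correlated with each. The genes and lists were chosen with earlier results of these data known. The alternatives were other fits, normalizations, thresholds and left-out arrays.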

Additional observations from a re-analysis of the deposited data

Results flagged for a closer look

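The SAR response of *NUDT6* differed between WT and *lecrk-VI.2-2* by an interaction test, with the change larger in WT by 1.70 on the log2 scale (*q* = 0.0021 by limma). All 3 Psm arrays of *lecrk-VI.2-2* were below all 3 of WT, as for 12% of probe sets, which is not a like background. Both genes flagged here, *NUDT6* and *NUDT7*, were named through the rows with the largest WT changes, which favours a larger response in WT.

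The response of *NUDT6* also differed between WT and *bak1-5*, by 1.12 (*q* = 0.040), and this call was lost without any 1 of 11 arrays, with differences of 0.96 to 1.19.

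The response of *NUDT7* differed between WT and *bak1-5*, by 1.87 (*q* = 0.0041), with *bak1-5* at -0.15.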

How the results depend on the processing

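Of 1089 values of the 3 genes under 28 alternatives, 1040 kept their direction and their side of the threshold, 22 lost a call, 11 gained one and 16 changed sign. Kept in all of them were the calls of *NUDT6* and *NUDT7* in WT, of *NUDT6* in *bak1-5*, of *NUDT6* for WT minus *lecrk-VI.2-2*, of *NUDT7* for WT minus *bak1-5*, and of both genes against WT after Psm. Where no reason is given below, the cause was not tested.

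*AO* passed in WT with array weights (0.65), in a fit of the compared genotypes alone (0.62) and without the pair of arrays that stood apart (0.62), and leaving out single arrays gave 0.50 to 0.76. In *lecrk-VI.2-2* it missed the threshold in the fit of compared genotypes alone (1.09), at a stricter *q* of 0.01 (1.09) and without the pair (0.80), with 0.79 to 1.26 on leaving out single arrays. In *bak1-5* single arrays gave 0.88 to 1.25. With a 2-fold change required as well, the averages of *AO* (0.94) and *NUDT7* (0.76) missed, since they are below 1. The difference between the mutants in the change of *AO*, near 0, turned to -0.20 with array weights, -0.053 with cyclic loess, -0.048 with median centring and -0.29 without the pair, and ranged from -0.30 to 0.22 over single arrays. After MgCl2 the *AO* difference of *lecrk-VI.2-2* from WT turned to 0.081 without the pair (single arrays, -0.40 to 0.081), and that of *bak1-5* ranged from -0.036 to 0.29.

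*NUDT6* in *lecrk-VI.2-2* passed with array weights (0.87) and with dim probe sets left out (0.71, fewer tests), and single arrays gave 0.47 to 0.89. For WT minus *bak1-5* it missed at a *q* of 0.01 (1.12), and single arrays gave 0.96 to 1.297. Single arrays gave -0.026 to 0.12 for *bak1-5* minus WT after MgCl2 and -1.002 to -0.58 for *lecrk-VI.2-2* minus *bak1-5* after Psm. *NUDT7* passed with array weights in *lecrk-VI.2-2* (0.76) and for *lecrk-VI.2-2* minus *bak1-5* after MgCl2 (-1.06, single arrays -1.43 to -0.85), and its change in *bak1-5* was -0.47 to 0.10 over single arrays.

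Synthesis and salvage genes that rose in WT (1 as reported) numbered 3 with array weights, 3 in the fit of compared genotypes alone, 3 without the pair, 2 with cyclic loess, 0 with dim probe sets left out, 0 with a 2-fold change and 0 to 3 over single arrays. In *lecrk-VI.2-2* (1) they numbered 0 in the fit of compared genotypes alone, at a *q* of 0.01 and without the pair, and 0 to 1 over single arrays. In *bak1-5* (2) they numbered 1 with dim probe sets left out, 1 with a 2-fold change and 1 to 2 over single arrays. Nudix genes that rose in *lecrk-VI.2-2* (0) numbered 4 with array weights, 1 with dim probe sets left out and 0 to 1 over single arrays, and in *bak1-5* (2) 1 with a 2-fold change.

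With the replicate number as a block, no call of the 3 genes changed (*NUDT6* in WT 2.41, *q* = 2.5e-07), and calls over all probe sets went from 2933 to 2833 in WT, 248 to 230 in *lecrk-VI.2-2* and 1614 to 1484 in *bak1-5*. Same-numbered MgCl2 and Psm arrays of a genotype were not more alike than others. Their deviations from group means correlated at -0.44 to 0.24, 1 of 9 above 0.1, against -0.41 to 0.57 for different numbers. These values cannot tell whether same-numbered plants were grown or infiltrated together. Signals below 6, where *AO* lay on most arrays, have no background measure here, so a small change of a dim gene may not be detectable. By Spearman's rho in place of *r*, the 5 genes named as nearest ranked 2 to 22 for *AO*, 1 to 451 for *NUDT6* and 1 to 51 for *NUDT7*, and over the 6 group means they ranked 11 to 68, 5 to 51 and 1 to 28. With every probe set of a gene kept, nothing changed, since each listed gene has 1.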

Other observations

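In *lecrk-VI.2-2* the within-array difference between *NUDT6* and *NUDT7* was nearly the same on same-numbered MgCl2 and Psm arrays (0.32 and 0.32, 0.50 and 0.47, -0.07 and -0.07). Over all probe sets, same-numbered arrays were not more alike than others. In WT and *bak1-5* same-numbered arrays did not coincide in this way. The pattern was noticed after the values were seen and was not tested.

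The senescence gene *SAG13* had changes of 1.34 in WT, 0.13 in *lecrk-VI.2-2* and 0.11 in *bak1-5*, and neither difference from WT passed (1.21, *q* = 0.058, and 1.23, *q* = 0.053).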
